A study of Mus musculus with 2 samples.

Results

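Mt1, Mt2 and Mt3 are the metallothioneins of the brain, small cysteine-rich proteins that bind zinc and copper. They were taken by gene symbol, and all 3 were found among the 32285 genes of the count matrices (ENSMUSG00000031765, ENSMUSG00000031762 and ENSMUSG00000031760). Their levels were followed through 11 cell classes of the hippocampus in a PS19 library and a PZKO library, and were set beside the lower level of transcripts of short genes in PZKO.

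Single-nucleus RNA sequencing with 10x Genomics 3′ chemistry was done on hippocampi pooled from 5 male mice per genotype, aged 9 months. PS19 mice were PS19+/- Zbp1+/+ and PZKO mice were PS19+/- Zbp1-/-, so both groups carried the Tau P301S transgene, a human mutant tau driven by the mouse prion promoter, and they differed in the Zbp1 knockout alleles (line from Cyagen). The methods also describe separate processing of individual animals, but the counts carry no animal label, so the genotypes are compared without a test, from a single library each. All intervals below are 95% intervals that cover counting error only, and differences between mice, dissections or libraries cannot be told apart from genotype.

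The PS19 library held 11469 nuclei and 116488513 unique molecular identifiers (UMIs), and the PZKO library held 10920 nuclei and 171167884 UMIs. After the filters 9590 and 9307 nuclei were kept, with a median of 5849 and 9022 UMIs per nucleus, and mitochondrial transcripts made up 0.598% and 0.351% of their UMIs. The libraries shared 47 cell barcodes, 29 of them among kept nuclei. Zbp1 had 92 UMIs in kept PS19 nuclei (0.915 CPM, counts scaled to the summed UMIs of the same nuclei) and 38 UMIs in PZKO (0.250 CPM). Its log2 ratio, here and throughout PZKO over PS19, was -1.87 (-2.46 to -1.31). Transcripts of Ttr, the transthyretin of choroid plexus epithelium, were found in every class, at 413 CPM over all kept PS19 nuclei and 57.4 CPM over all kept PZKO nuclei. Ttr, used below to set the amount of RNA free in the suspension, was 7.20-fold higher in PS19. Choroid plexus cells, its source, were 261 of the kept PS19 nuclei and 94 of the kept PZKO nuclei, with 2.29% and 0.803% of all UMIs, so from Ttr alone fewer choroid plexus cells and less free RNA of all kinds cannot be told apart.

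Metallothioneins hold zinc and copper through their thiol groups, buffer the free metal in the cell and take up reactive oxygen species. Mt1 and Mt2 are found in many tissues and are induced by zinc, glucocorticoids and oxidative stress, with zinc acting through the transcription factor Mtf1 at metal response elements in their promoters. Mt3 is mainly a brain form, first described as an inhibitor of neurite growth, and responds little to metals. In brain, astrocytes are the cells best known for Mt1 and Mt2.

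The 3 genes lie on the plus strand of chromosome 8 (mm10, GENCODE M21) in 27.7 kb. Mt3 spans chr8:94152607-94154146, Mt2 spans chr8:94172664-94173568 and Mt1 spans chr8:94179082-94180327. All 3 are thus among the shortest genes, at 1540, 905 and 1246 bases. Mt4, the family member of squamous epithelium, lies upstream at chr8:94137197-94139031 and had 2 UMIs over all kept PS19 nuclei and 1 UMI over all kept PZKO nuclei, both under the floor of 3 counts that a count of 0 allows. The Mt transcripts shared no run of 31 bases with each other, so reads could be assigned to a single member, and of 573 such runs in Mt2, 3 occur in Pip5k1a.

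The promoters of the 3 genes are shown because the genes were lower together in PZKO and because zinc reaches Mt1 and Mt2 through known elements. The bases before the earlier of the RefSeq and GENCODE starts are printed from RefSeq (GRCm38.p6, plus strand, 5′ to 3′), and capitals mark the core of the metal response element, TGCACNC or TGCGCNC, on either strand.
Mt1 (chr8:94178839-94179081): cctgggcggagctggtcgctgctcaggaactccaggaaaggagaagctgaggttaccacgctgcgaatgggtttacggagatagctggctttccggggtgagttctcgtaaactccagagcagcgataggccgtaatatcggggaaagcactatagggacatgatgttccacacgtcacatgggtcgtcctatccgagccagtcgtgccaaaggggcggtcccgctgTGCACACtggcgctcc
Mt2 (chr8:94172368-94172617): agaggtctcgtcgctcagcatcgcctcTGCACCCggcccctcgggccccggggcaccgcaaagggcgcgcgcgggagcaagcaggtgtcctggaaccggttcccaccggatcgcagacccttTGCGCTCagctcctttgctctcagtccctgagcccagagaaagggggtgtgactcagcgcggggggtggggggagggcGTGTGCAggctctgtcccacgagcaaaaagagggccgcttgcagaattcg
Mt3 (chr8:94152357-94152606): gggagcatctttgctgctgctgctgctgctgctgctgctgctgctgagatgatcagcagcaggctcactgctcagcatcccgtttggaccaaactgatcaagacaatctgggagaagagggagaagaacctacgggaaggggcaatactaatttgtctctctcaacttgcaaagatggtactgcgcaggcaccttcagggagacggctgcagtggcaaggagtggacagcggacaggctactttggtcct
The core was found in 1 place in the printed bases of Mt1, in 3 places in Mt2 and in none in Mt3. Of 32817 promoter windows, 21.4% hold at least 1 core in the 250 bases before the RefSeq start, 5.18% at least 2 and 1.26% at least 3. Over the whole window of 300 bases, which runs past the start, Mt1 had 3 cores, Mt2 had 4 and Mt3 had 1, and 1.97% of windows held at least 3. For Mt1, 2 cores thus lie after the printed bases. The counts rest on the annotated start, and the printed bases need not hold the whole promoter. A match is a string of letters and says nothing of binding in these cells, and its absence says nothing of the factor.

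Nuclei were grouped by clustering without the metallothionein genes, and each cluster was given a class by its marker genes. A class name such as astrocyte stands for astrocyte-like nuclei, whose clusters carried all 9 astrocyte markers (among them Aqp4, Gja1 and Slc1a2). Of 31 clusters, 3 stayed unnamed, with 428 PS19 and 343 PZKO nuclei.

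Among the 11 named classes, astrocytes had the highest level of all 3 metallothioneins in both libraries, although for Mt3 in PZKO the interval overlapped that of ependymal cells, and an unnamed cluster of few UMIs, described below, stood higher for Mt1 and Mt3. Mt1 stood at 833 CPM (interval 813 to 853) in 1082 PS19 astrocytes and at 478 CPM (465 to 491) in 1167 PZKO astrocytes. Mt2 stood at 372 CPM (359 to 386) and 211 CPM (203 to 220). Mt3 stood at 428 CPM (414 to 443) and 281 CPM (272 to 291). Astrocytes were 11.3% of PS19 nuclei, but held 41.7% of all Mt1 UMIs, 55.1% of Mt2 UMIs and 28.2% of Mt3 UMIs. In PZKO they were 12.5% of nuclei and held 49.3%, 60.7% and 29.3%.

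Excitatory neurons were at the other end of the order for Mt1 and Mt2 in PS19. Mt1 was 54.8 CPM in PS19 and 22.7 CPM in PZKO excitatory neurons, so that astrocytes stood 15.2-fold and 21.02-fold higher. Mt2 was 13.7 and 6.24 CPM, with astrocytes 27.1-fold and 33.8-fold higher. The spread over classes was smaller for Mt3, at 70.4 and 43.4 CPM in excitatory neurons, with astrocytes 6.09-fold and 6.49-fold higher. These folds compare classes for the same gene, and levels of different genes were not compared.

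Endothelial and ependymal cells came next to astrocytes. For Mt1 in PS19, endothelial cells (463 CPM) and ependymal cells (415 CPM) had overlapping intervals, followed by oligodendrocytes (259 CPM), microglia (238 CPM), vascular leptomeningeal cells (VLMC, 229 CPM) and pericytes or mural cells (175 CPM). Each of these 4 classes overlapped with the next of them, and together they stood apart from ependymal cells above and oligodendrocyte precursors below. Levels include free RNA, and its part as set by Ttr is given below. Oligodendrocyte precursors (101 CPM) and choroid plexus cells (98.8 CPM) overlapped, and inhibitory neurons (63.4 CPM) stood apart from excitatory neurons. In PZKO, Mt1 was 332 CPM in endothelial cells, 197 CPM in ependymal cells and between 137 and 79.8 CPM in pericytes, oligodendrocytes, microglia and VLMC. It was 44.6 CPM in oligodendrocyte precursors, 33.5 CPM in choroid plexus cells and 25.2 CPM in inhibitory neurons. The last 4 classes of that order, from oligodendrocyte precursors to excitatory neurons, each overlapped with the next.

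The order for Mt2 was close to that of Mt1. Ependymal cells (144 CPM) and endothelial cells (137 CPM) followed astrocytes in PS19, with overlapping intervals, and in PZKO endothelial cells (110 CPM) stood apart from ependymal cells (48.3 CPM). From ependymal cells down, each class in PS19 overlapped with the next. Choroid plexus cells had the lowest Mt2 in PZKO, at 5.73 CPM (2.30 to 11.8, 7 UMIs), and overlapped with excitatory neurons.

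For Mt3, ependymal cells followed astrocytes, at 342 CPM in PS19 and 260 CPM in PZKO, and in PZKO the intervals of these 2 classes overlapped. Endothelial cells, VLMC, pericytes, oligodendrocytes and microglia lay between 203 and 160 CPM in PS19, and each overlapped with the next in that order. Inhibitory neurons were lowest, at 66.5 CPM in PS19 and 38.8 CPM in PZKO.

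**Figure D1:**
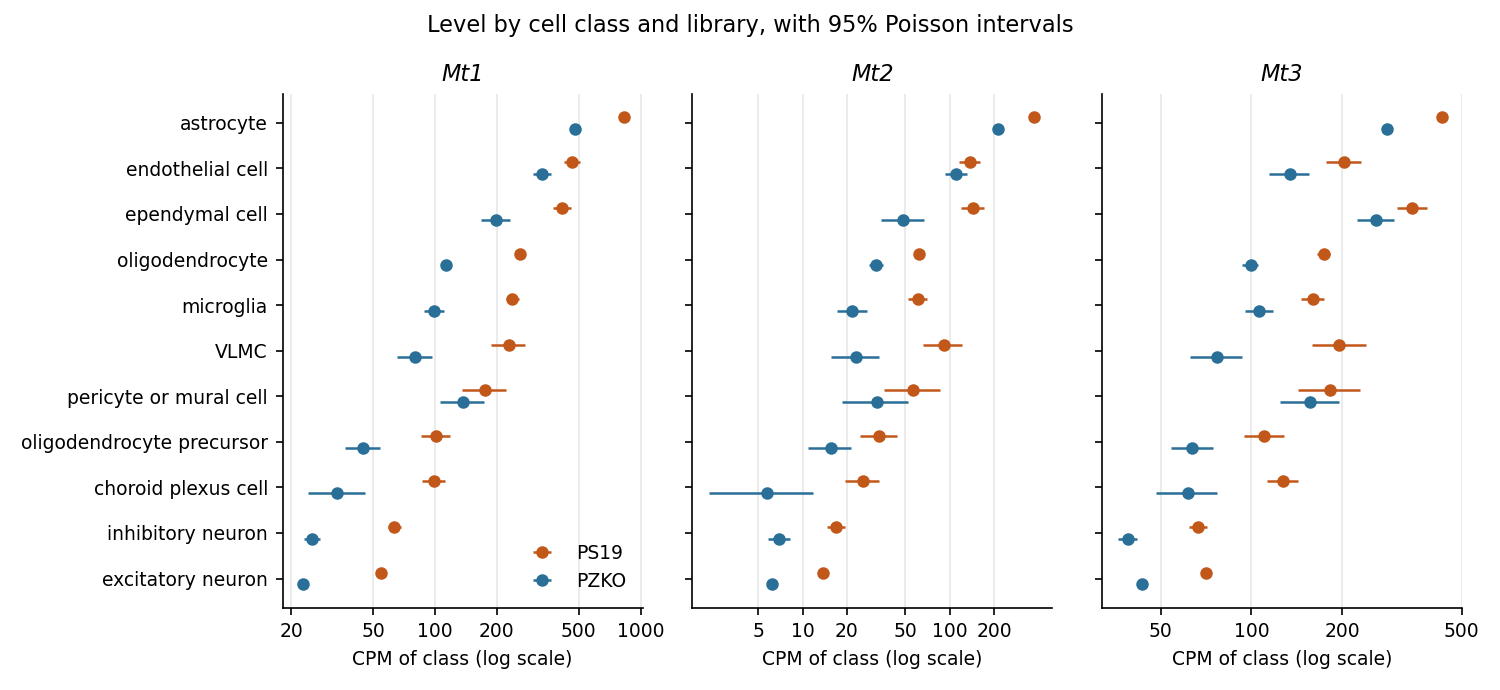
Level of Mt1, Mt2 and Mt3 in 11 cell classes, in CPM of the class on a log axis, with PS19 in orange, PZKO in blue and bars for the 95% Poisson interval. Astrocytes are highest in every panel, and each PZKO point lies to the left of its PS19 point.

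The share of nuclei with at least 1 UMI followed depth as well as level. Mt1 was detected in 60.7% of PS19 and 45.5% of PZKO excitatory neurons, at a median of 18902 and 28267 UMIs per nucleus, against 90.0% and 86.9% of astrocytes at a median of 6898 and 8959 UMIs. After each nucleus was thinned to 2000 UMIs, which left out 4 astrocytes in each library and 1 and 3 excitatory neurons, Mt1 was detected in 65.4% (62.5 to 68.2) of PS19 and 50.2% (47.3 to 53.1) of PZKO astrocytes, and in 11.98% (10.8 to 13.2) and 5.07% (4.33 to 5.91) of excitatory neurons. Thinned shares for Mt2 were 42.2% and 29.3% in astrocytes and 3.41% and 1.46% in excitatory neurons. Thinned shares for Mt3 were 50.1% and 42.1% in astrocytes and 13.4% and 8.56% in excitatory neurons. The thinned share was lower in PZKO for each of the 3 genes in both classes, with intervals that did not overlap.

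The make-up of the metallothionein UMIs differed between classes. In PS19 astrocytes Mt2 was 22.8% (22.1 to 23.5) of the UMIs of the 3 genes and Mt3 was 26.2% (25.5 to 27.0). In PS19 excitatory neurons Mt2 was 9.89% (9.26 to 10.5) and Mt3 was 50.6% (49.6 to 51.7). The part of free RNA in these shares was not tested. Mt1 had its largest share in endothelial cells, at 57.7% in PS19 and 57.6% in PZKO. The share of Mt3 was higher in PZKO than in PS19 in 10 of 11 classes, with intervals apart in 6, and endothelial cells were the exception (25.3% and 23.3%).

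**Figure D2:**
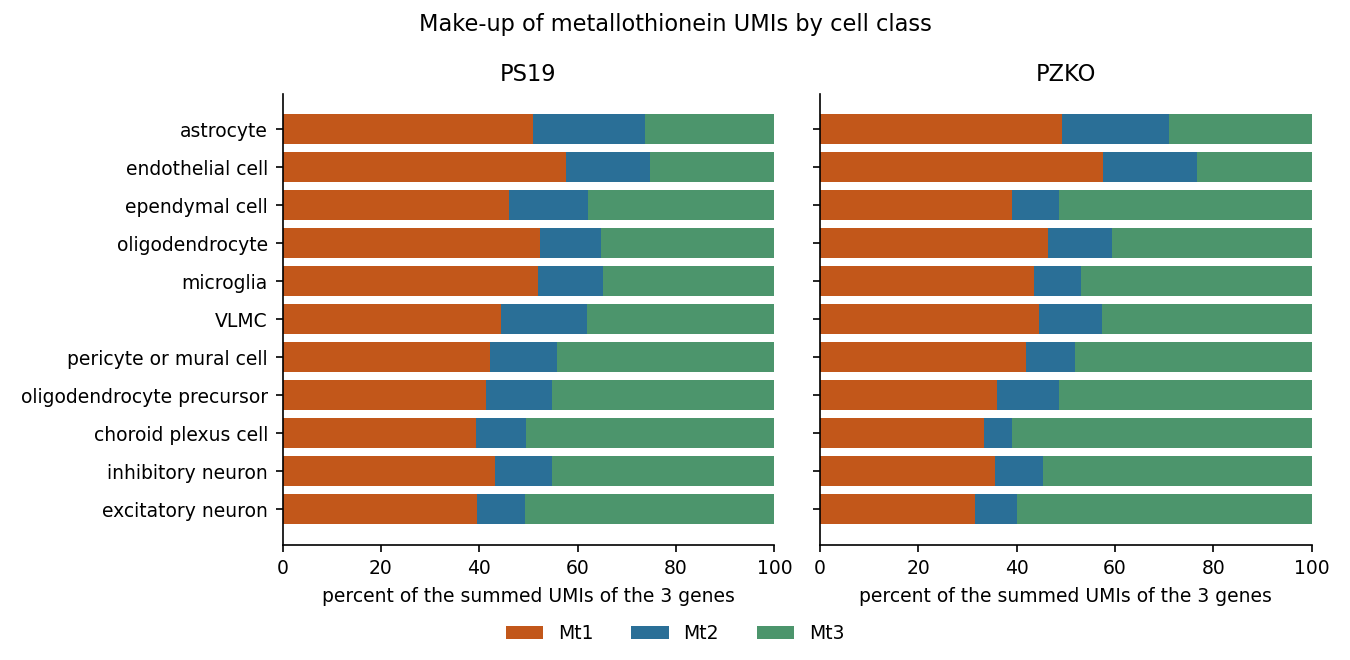
Percent of the summed UMIs of Mt1 (orange), Mt2 (blue) and Mt3 (green) by cell class, with PS19 on the left and PZKO on the right. Mt3 takes 26.2% in PS19 astrocytes and 50.6% in PS19 excitatory neurons.

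All 3 metallothioneins were lower in PZKO than in PS19. Over all kept nuclei, Mt1 went from 161 CPM (16193 UMIs) in PS19 to 70.6 CPM (10751 UMIs) in PZKO, which is -1.19 (-1.22 to -1.15) as a log2 ratio. Mt2 went from 54.4 to 25.3 CPM, a log2 ratio of -1.10 (-1.16 to -1.04), and Mt3 from 122 to 69.8 CPM, a log2 ratio of -0.81 (-0.84 to -0.77). By a threshold of 1.5-fold lower, which all 3 passed, 9.79% of the 20213 genes with at least 20 UMIs in each library were lower over all nuclei, and 27% of the 925 genes among them that span under 2 kb. Mitochondrial genes were not left out of the groups of genes by span, here or below, unless stated.

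In astrocytes the log2 ratio was -0.80 (-0.85 to -0.75) for Mt1, -0.82 (-0.90 to -0.74) for Mt2 and -0.61 (-0.68 to -0.54) for Mt3. All 3 were past 1.5-fold, though none was with counts scaled to genes under 5 kb or with a stricter filter on nuclei. Past it were also 8.08% of all 13608 genes measured in astrocytes and 42.1% of the 340 that span under 2 kb. Astrocytes fell into 2 clusters. The cluster led by Cd44 and A2m, with 598 PS19 and 537 PZKO nuclei, had Mt1 at 1025 and 611 CPM (log2 ratio -0.75), and the cluster led by Gpc5, with 484 and 630 nuclei, had Mt1 at 529 and 329 CPM (-0.68). Mt2 was at 464 and 278 CPM in the first and at 226 and 136 CPM in the other, and Mt3 was at 477 and 300 CPM and at 352 and 260 CPM. The Cd44 and A2m cluster, with the higher Mt1, held 598 of 1082 PS19 astrocytes and 537 of 1167 PZKO astrocytes, and the class ratio of -0.80 lay below that of either cluster.

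In excitatory neurons the log2 ratio was -1.27 (-1.35 to -1.19) for Mt1, -1.14 (-1.29 to -0.99) for Mt2 and -0.70 (-0.76 to -0.64) for Mt3. Here 6.63% of 17576 genes were at least 1.5-fold lower, and 21.6% of the 707 that span under 2 kb. The class holds 10 clusters, and the interval of the log2 ratio lay below 0 in all 10 for Mt1 (-1.63 to -0.66) and for Mt2 (-1.33 to -0.74), and in 8 of 10 for Mt3 (-0.74 to -0.26). The cluster led by Onecut1, Trpc6 and Smoc2 had the highest Mt1 among the 10 in both libraries, at 82.1 and 30.9 CPM (log2 ratio -1.41). In PZKO the next cluster was close, at 29.6 CPM from 168 UMIs. The Onecut1 cluster held 1009 of 2815 PS19 and 514 of 3077 PZKO excitatory neurons, so the class ratios also carry this difference in make-up. In inhibitory neurons the log2 ratios were -1.33, -1.28 and -0.78, with 7.41% of all genes and 31.6% of genes under 2 kb at least 1.5-fold lower. All 3 inhibitory clusters had intervals below 0 for each gene. The share of all genes with an interval below 0 was not taken by cluster.

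In oligodendrocytes Mt1 went from 259 to 113 CPM (log2 ratio -1.19), Mt2 from 61.7 to 31.6 CPM (-0.97) and Mt3 from 174 to 99.3 CPM (-0.81). At least 1.5-fold lower were 6.31% of all genes and 28.4% of genes under 2 kb. In microglia Mt1 went from 238 to 98.8 CPM (-1.27), Mt2 from 60.4 to 21.8 CPM (-1.47) and Mt3 from 160 to 106 CPM (-0.59, interval -0.79 to -0.39, just past 1.5-fold). At least 1.5-fold lower were 5.38% of all genes and 18.3% of genes under 2 kb. Oligodendrocyte precursors had ratios of -1.18, -1.08 and -0.80, and 10.3% of all genes and 41.6% of genes under 2 kb were at least 1.5-fold lower in them.

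Vascular and ventricular classes were uneven. In endothelial cells Mt1 was 463 and 332 CPM (-0.48, -0.67 to -0.29), Mt2 was 137 and 110 CPM (-0.31, -0.65 to 0.04) and Mt3 was 203 and 134 CPM (-0.60, -0.89 to -0.30). Their larger cluster, 253 nuclei in each library, had Mt1 at 297 and 119 CPM (-1.32, -1.70 to -0.94). The smaller cluster, led by Ly6c1, Pglyrp1 and Ly6a, with 59 PS19 and 48 PZKO nuclei, had Mt1 at 702 and 603 CPM (-0.22, -0.45 to 0.01), and these few nuclei held 309 of 498 Mt1 UMIs in PS19 and 336 of 421 in PZKO. In pericytes all 3 intervals reached past 0, with ratios of -0.35, -0.81 and -0.22. In VLMC the ratios were -1.52, -1.98 and -1.35, in ependymal cells -1.08, -1.58 and -0.40, and in choroid plexus cells -1.56, -2.16 and -1.05, the last from 41, 7 and 75 UMIs in PZKO. Of 33 ratios of a gene in a class, all 33 were below 0, 29 had an interval that stayed below 0, and 28 were past 1.5-fold. Over all genes measured, an interval stayed below 0 for 20.6% in astrocytes, 33.2% in excitatory neurons, 18.0% in oligodendrocytes and 11.3% in microglia. That share was not taken in the other classes. The shares of all genes and of genes under 2 kb past 1.5-fold were 4.99% and 6.61% in endothelial cells, 9.49% and 2.78% in pericytes, 13.9% and 85.4% in VLMC, 6.28% and 30.2% in ependymal cells, and 4.96% and 39.7% in choroid plexus cells. In VLMC most short genes were thus as low as the threshold, and the metallothioneins were not alone in passing it.

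**Figure D3:**
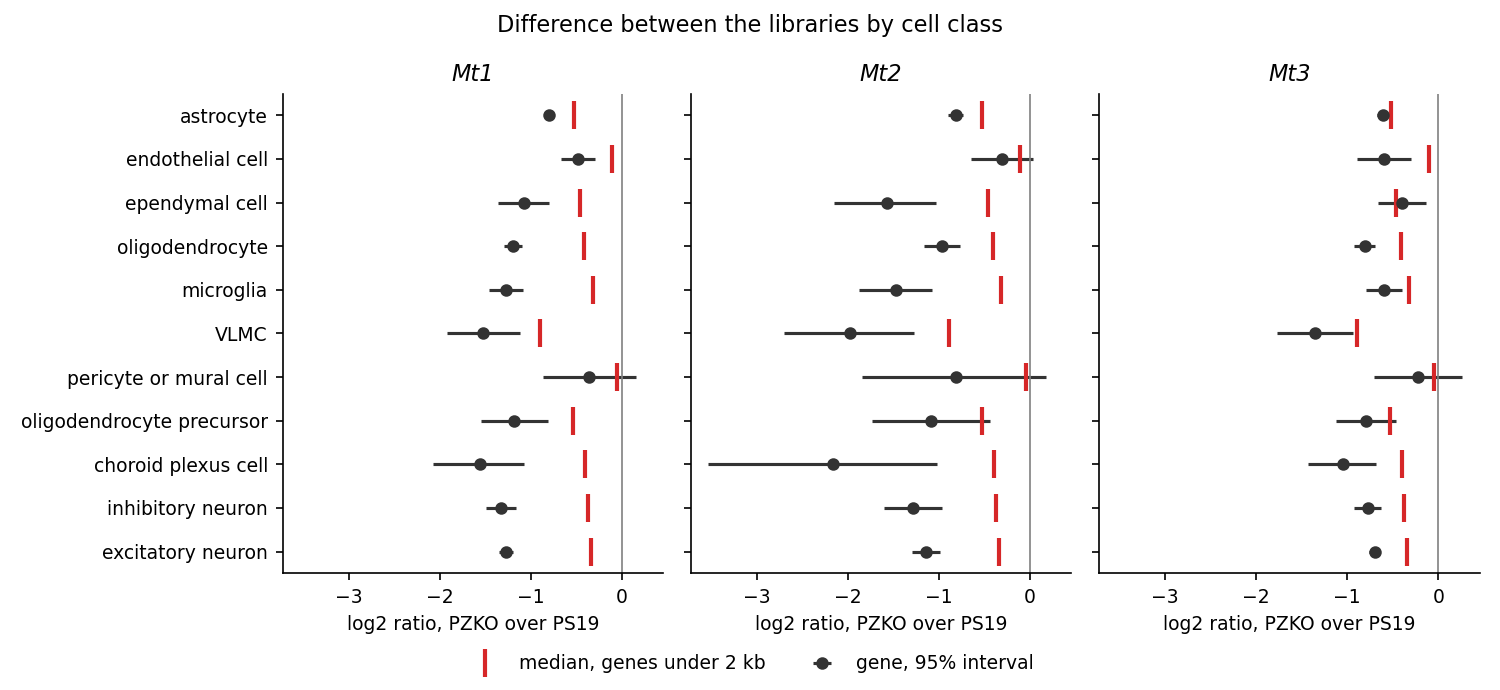
Log2 ratio of PZKO over PS19 for Mt1, Mt2 and Mt3 in 11 cell classes, with bars for the exact conditional 95% interval, and a red tick for the median of genes that span under 2 kb in that class. All 33 points lie below 0, and 30 of the 31 with enough UMIs lie below the red tick.

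Other short genes were lower in PZKO as well, and over all nuclei the difference went with gene length. Over all nuclei the median log2 ratio was -0.37 for genes that span under 2 kb, -0.34 for 2 to 5 kb, -0.21 for 5 to 20 kb, -0.07 for 20 to 100 kb and 0.06 for over 100 kb. In astrocytes the same medians ran from -0.52 to 0.12, in excitatory neurons from -0.34 to 0.09, in oligodendrocytes from -0.41 to 0.12 and in microglia from -0.32 to 0.13. In VLMC they ran from -0.89 to 0.08. Endothelial cells and pericytes showed less of this. In endothelial cells the median was -0.11 under 2 kb and -0.11 at 5 to 20 kb. In pericytes it was -0.05 under 2 kb and -0.23 at 2 to 5 kb. By length of the longest annotated transcript, the median in astrocytes was -0.35 under 0.5 kb and 0.03 over 4 kb. UMIs of genes that span under 2 kb, without mitochondrial genes, made up 1.14% of astrocyte UMIs in PS19 and 0.876% in PZKO.

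Within that group of short genes, metallothioneins sat at different places in different classes. In astrocytes Mt1 lay 0.28 below the group median on the log2 scale, Mt2 lay 0.29 below and Mt3 lay 0.08 below, and 17.6%, 16.5% and 39.1% of the 340 genes were lower still. Short genes within 3-fold of their PS19 UMIs, the metallothioneins included, had lower medians, of -0.66 around Mt1 (12 genes), -0.63 around Mt2 (14 genes) and -0.66 around Mt3 (12 genes). Mt3, at -0.61, lay above the median of its set, of which 9 genes were lower. Mitochondrial genes were not left out of these sets, and they made up 0.849% of astrocyte UMIs in PS19 and 0.555% in PZKO. Their part in these medians was not tested. In excitatory neurons Mt1 lay 0.93 below the median, Mt2 0.80 and Mt3 0.36, and 12, 15 and 90 of 707 genes were lower. In microglia 1 of 202 genes was lower than Mt1, none was lower than Mt2, and 34 were lower than Mt3. In oligodendrocytes the counts were 3, 17 and 29 of 278. Of 31 ratios of a gene in a class with at least 20 UMIs in each library, 30 lay below the median of short genes, and Mt3 in ependymal cells (0.06 above) was the exception. Against short genes of similar PS19 UMIs, Mt3 lay closer in inhibitory neurons (-0.78 against -0.69, 14 of 40 lower) and microglia (-0.59 against -0.53, 9 of 27 lower). In pericytes Mt3 was itself the median gene of its set, at -0.22 (10 of 21 lower). It did not lie closer in endothelial cells (-0.60 against -0.08) or oligodendrocyte precursors (-0.80 against -0.49).

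**Figure D4:**
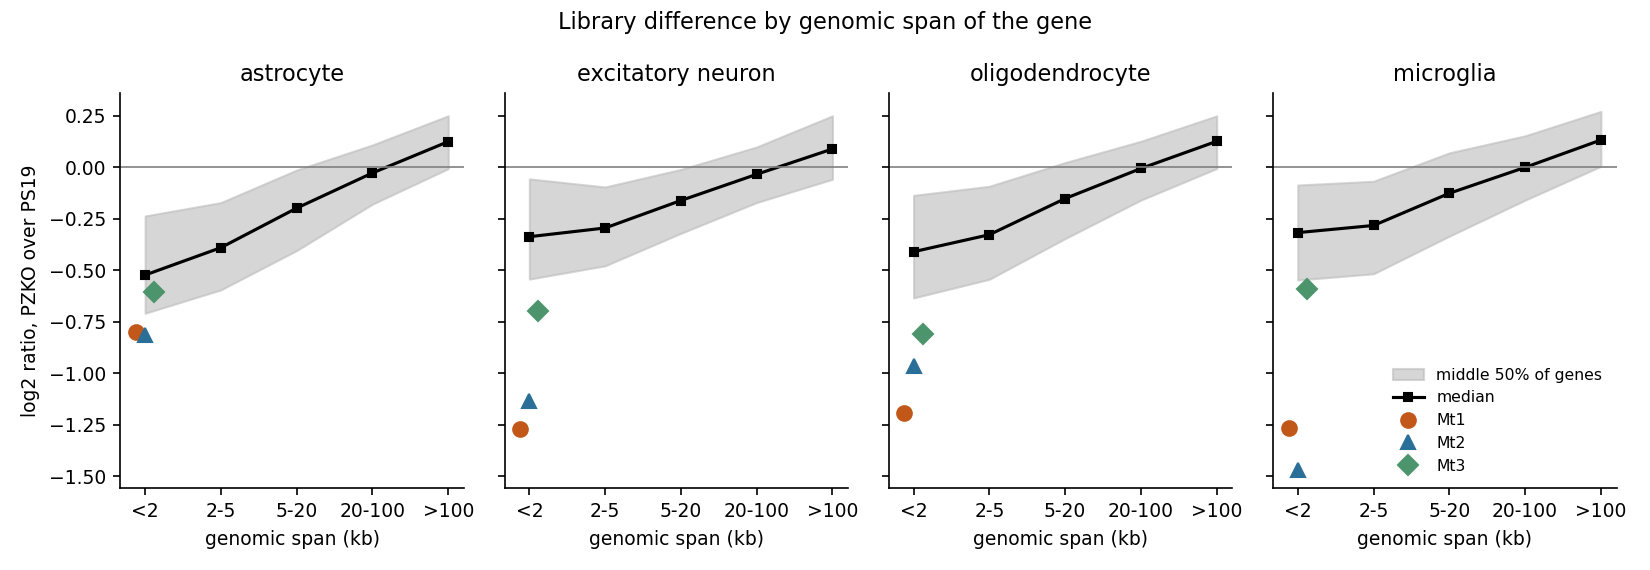
Median (line) and middle 50% (grey) of the log2 ratio of PZKO over PS19 by genomic span in 4 classes, with Mt1, Mt2 and Mt3 marked in the bin under 2 kb. In astrocytes the bin median is -0.52 and Mt3 lies within the grey band, and in excitatory neurons the bin median is -0.34 and all 3 genes lie below the band.

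Ogfod1, Bbs2, Nup93, C78859 and Nudt21 lie within 200 kb of the locus on chromosome 8, had at least 100 UMIs in each library and are longer, with spans of 5943 to 102664 bases. Over all nuclei their log2 ratios were 0.03 for Ogfod1, -0.0035 for Bbs2, -0.06 for Nup93 and for C78859, and -0.17 for Nudt21. All 3 metallothioneins lay below each of these 5 genes. In astrocytes the 5 genes lay between -0.45 (C78859, 45 PS19 UMIs) and 0.19 (Bbs2), and the metallothioneins again lay below each.

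Ttr, the transcript used to set free RNA, was lower in PZKO. Outside choroid plexus the log2 ratio of Ttr was between -3.38 and -2.77 in all classes, against -0.57 in choroid plexus cells, its own class, where it stood at 4449 and 3002 CPM. Other transcripts out of place did not differ as much. Mbp, the myelin protein of oligodendrocytes, was 105 and 110 CPM in excitatory neurons (0.07), and Snap25, a synaptic protein of neurons, was 56.3 and 49.98 CPM in astrocytes (-0.17, interval -0.35 to 0.01). In astrocytes Mbp was lower in PZKO, at -0.31 (-0.40 to -0.23). Outside oligodendrocytes and their precursors Mbp ran from -0.33 in choroid plexus cells to 0.47 in ependymal cells. In the precursors, where Mbp need not be out of place, it was at 1.89. Outside neurons Snap25 ran from -0.72 in pericytes to 0.06 in endothelial cells. An unnamed cluster of few UMIs (median 816), led by Ttr, Scg2 and Chgb, with 343 PS19 and 260 PZKO nuclei, had Mt1 at 1643 CPM (1522 to 1771) in PS19 and 715 CPM (620 to 821) in PZKO, above astrocytes in both libraries. Mt2 stood there at 443 and 235 CPM, and Mt3 at 1022 and 687 CPM. Relative to astrocytes, excitatory neurons had 6.58% of Mt1 in PS19, 4.76% in PZKO, 16.4% and 15.4% of Mt3, 1.12% and 1.003% of Aqp4, the water channel of astrocytes, 4.72% and 4.55% of Slc1a2, and 8.15% and 9.06% of Apoe.

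When the profile of this cluster was taken as free RNA and its amount in each class was set by Ttr, it came to 6.20% of astrocyte UMIs in PS19 and 2.03% in PZKO, and to 2.51% and 0.720% of excitatory neuron UMIs. That amount would hold 12.2% of the Mt1 level of PS19 astrocytes and 3.03% of that of PZKO astrocytes, but 75.3% and 22.6% of the level of excitatory neurons. For Mt1 in oligodendrocytes it would hold 79.2% and 20.9%, in microglia 82.5% and 28.1%, and in VLMC 74.4% and 36.3%. In endothelial cells it would hold 46.4% and 9.59%, and in ependymal cells 29.4% and 9.62%. After subtraction the log2 ratios in astrocytes were -0.72 for Mt1, -0.80 for Mt2 and -0.51 for Mt3. In excitatory neurons Mt1 was then 13.9 CPM in PS19 and 17.7 CPM in PZKO, a log2 ratio of 0.35, and Mt2 was 2.68 and 4.59 CPM, a log2 ratio of 0.77. Mt3 was 45.8 and 38.7 CPM, a log2 ratio of -0.24. In oligodendrocytes, microglia and endothelial cells the ratio of Mt1 was then positive as well, at 0.59, 0.64 and 0.14. In PS19 oligodendrocyte precursors and pericytes the subtracted amount was 109% and 104% of the measured Mt1 level, so no ratio of Mt1 could be formed there. This profile thus also took more than the measured level in places. Under this subtraction astrocytes, inhibitory neurons, VLMC and ependymal cells kept ratios below 0 for all 3 genes, with Mt1 and Mt2 in inhibitory neurons at -0.0025 and -0.0081. The alternative was added after the data had been seen, and it reads the lower Ttr of PZKO as less free RNA.

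With the mean profile of the library in place of the few-UMI cluster, as an alternative, the direction turned in astrocytes too. The amount set by Ttr came to more than all UMIs in 4 classes of both libraries, at 115% and 127% in oligodendrocytes, 111% and 149% in microglia, 121% and 171% in endothelial cells and 102% and 147% in pericytes, which is not possible, so this profile overstates free RNA there. In astrocytes it was 57.3% in PS19 and 77.8% in PZKO, and the log2 ratios were 0.17 for Mt1, 0.14 for Mt2 and 0.30 for Mt3. In excitatory neurons this amount was larger than the whole level of Mt1 and Mt2 in both libraries, so that no ratio could be formed, and Mt3 was at -0.64. How much of the difference in metallothioneins came with free RNA thus rested on the profile assumed and on Ttr, which alone set the amount. That part cannot be told apart from genotype with these libraries.

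Mitochondrial share, which was lower in PZKO over all nuclei, went with metallothionein level within each library. It was not lower in PZKO in endothelial cells (1.437% in PS19 and 1.445% in PZKO) or pericytes (0.665% and 0.769%). In astrocytes with over 0.5% mitochondrial UMIs, Mt1 stood at 1098 CPM in PS19 and 621 CPM in PZKO, against 554 and 403 CPM in astrocytes with 0.1% to 0.5%. The higher range held 55.5% of PS19 astrocytes and 36.5% of PZKO astrocytes. Within the lower range the log2 ratios were -0.46 (-0.54 to -0.38) for Mt1, -0.48 (-0.60 to -0.35) for Mt2 and -0.31 (-0.42 to -0.19) for Mt3, and within the higher range -0.82, -0.84 and -0.62. In excitatory neurons with under 0.1% mitochondrial UMIs the ratios were -0.98, -0.79 and -0.43. The part of mitochondrial share in these differences was not tested beyond these values.

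Other astrocyte transcripts listed as short were lower alongside the metallothioneins. Of 12 such genes, 11 had an interval below 0 in astrocytes and none above, with a median log2 ratio of -0.57, against 20.6% below, 11.4% above and a median of -0.08 over all 15574 genes measured. The paper names Apoe, Clu, Cst3 and S100b of this list as lower in PZKO astrocytes of the same libraries. The list was chosen with earlier results known, so its count is a description only. Intervals are narrower for genes with more UMIs, so such counts also follow abundance. Clu, a secreted chaperone, was lowest at -1.11 (2193 and 1018 CPM), followed by Cst3, a secreted protease inhibitor, at -1.05 (1512 and 731 CPM), and Apoe, the lipid carrier, was at -0.87 (1654 and 903 CPM). Not all of the list is short by genomic span, since Clu spans 13065 bases and Gstm1 spans 5719. Genes that span 5 to 20 kb had a median of -0.20 in astrocytes. Aldoc, a glycolytic enzyme, was at -0.44. Ntsr2, a neurotensin receptor, was the exception, at -0.01 (499 and 497 CPM). Of 10 long astrocyte genes, 8 had an interval above 0 and 2 below, with a median of 0.21. Slc1a2, the glutamate transporter, was at 0.21 and Gpc5, a glypican, at 0.32, and Mertk was highest at 0.42 and Plpp3 lowest at -0.11.

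Genes that handle zinc lay on both sides of 0 in astrocytes, where the metallothioneins were lower. Of 20 genes of metal-responsive transcription and zinc transport, 5 (25%) had an interval below 0 and 3 (15%) above, with a median of -0.01. Over all genes in astrocytes 20.6% lay below and 11.4% above, with a median of -0.08, so the zinc counts were near those shares. Mtf1, the zinc sensor, was 18.1 CPM in PS19 and 20.5 CPM in PZKO (0.17, -0.13 to 0.48), and Slc30a1, a zinc exporter that Mtf1 also regulates, was 16.7 and 15.4 CPM (-0.11, -0.45 to 0.22). Slc39a12, a zinc transporter known from astrocytes, was 501 and 495 CPM (-0.02). The lowest of the list was Slc39a3, at -0.96 (9.63 and 4.96 CPM). The highest was Slc39a8, at 0.60, from 13 and 27 UMIs and with an interval that reached past 0. In excitatory neurons 9 of 20 had an interval below 0 and 4 above, with a median of -0.09, beside 33.2% below, 17.5% above and a median of -0.08 over all genes there, and Slc30a1 was at -0.35 and Mtf1 at 0.17 there.

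Of 10 copper genes in astrocytes, 2 had an interval below 0 and none above, with a median of -0.19, beside the 20.6% below and 11.4% above over all genes, and Cp, the copper-carrying ferroxidase, was lowest at -0.57 while Commd1 was highest at 0.15. Of 10 iron genes 3 were below and 2 above, with a median of -0.06. The 3 below were Trf (-0.80), Ftl1 (-0.72) and Fth1 (-0.67), which carry and store iron, and Ftl1 and Fth1 are themselves short, at 1941 and 4501 bases. Slc40a1, the iron exporter, was highest at 0.45, with an interval that reached past 0.

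The lists for the other known inducers of metallothioneins, oxidative stress and glucocorticoids, were read in the same way. Over all genes in astrocytes 20.6% had an interval below 0 and 11.4% above, with a median of -0.08. Of 12 antioxidant genes under Nfe2l2, 9 (75%) had an interval below 0 in astrocytes and 1 (8.33%) above, with a median of -0.27. Hmox1, heme oxygenase, was lowest at -1.19 (50 and 30 UMIs), Nfe2l2 itself was at -0.22, and Slc7a11, the cystine transporter and the longest of the list at 551089 bases, was highest at 0.25. Of 12 glucocorticoid response genes, 3 (25%) were below and 5 (41.7%) above, with a median of 0.08. Fkbp5 was at -0.33 and Tsc22d3 at 0.34, and Cdkn1a was lowest at -1.39. The part of these inducers in the metallothionein levels was not tested.

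The genes whose level was most like that of each metallothionein were sought over 22 points, 11 classes in 2 libraries, among 16623 genes with at least 100 UMIs in each library. The measure was Pearson's r of log2(CPM + 1), given as a description, since points of a library share depth and free RNA. Mt1 and Mt2 were each other's nearest gene, at 0.985. Mt1 was followed by Clu (0.952), Gstm1 (0.946), Mt3 (0.946) and Aldoc (0.915), and Mt2 by Clu (0.941), Gstm1 (0.941), Mt3 (0.926) and Gfap (0.925). For Mt3 the nearest was Clu (0.971), then Mt1, Mt2, Pla2g7 (0.916) and Mlc1 (0.915).

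How the ratios depend on processing is shown for astrocytes and excitatory neurons. Where counts were scaled to genes that span under 5 kb in place of all genes, the log2 ratios in astrocytes shrank to -0.39, -0.41 and -0.19 for Mt1, Mt2 and Mt3, and in excitatory neurons to -0.93, -0.80 and -0.36. With TMM factors of edgeR or size factors of DESeq2, Mt3 in astrocytes was at -0.52 and -0.51 and, of the 3 genes, it alone was no longer past 1.5-fold there. With a stricter filter on nuclei the 3 genes in astrocytes were at -0.49, -0.55 and -0.39, none past 1.5-fold, and with no filter Mt1 was at -1.26.

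**Figure D5:**
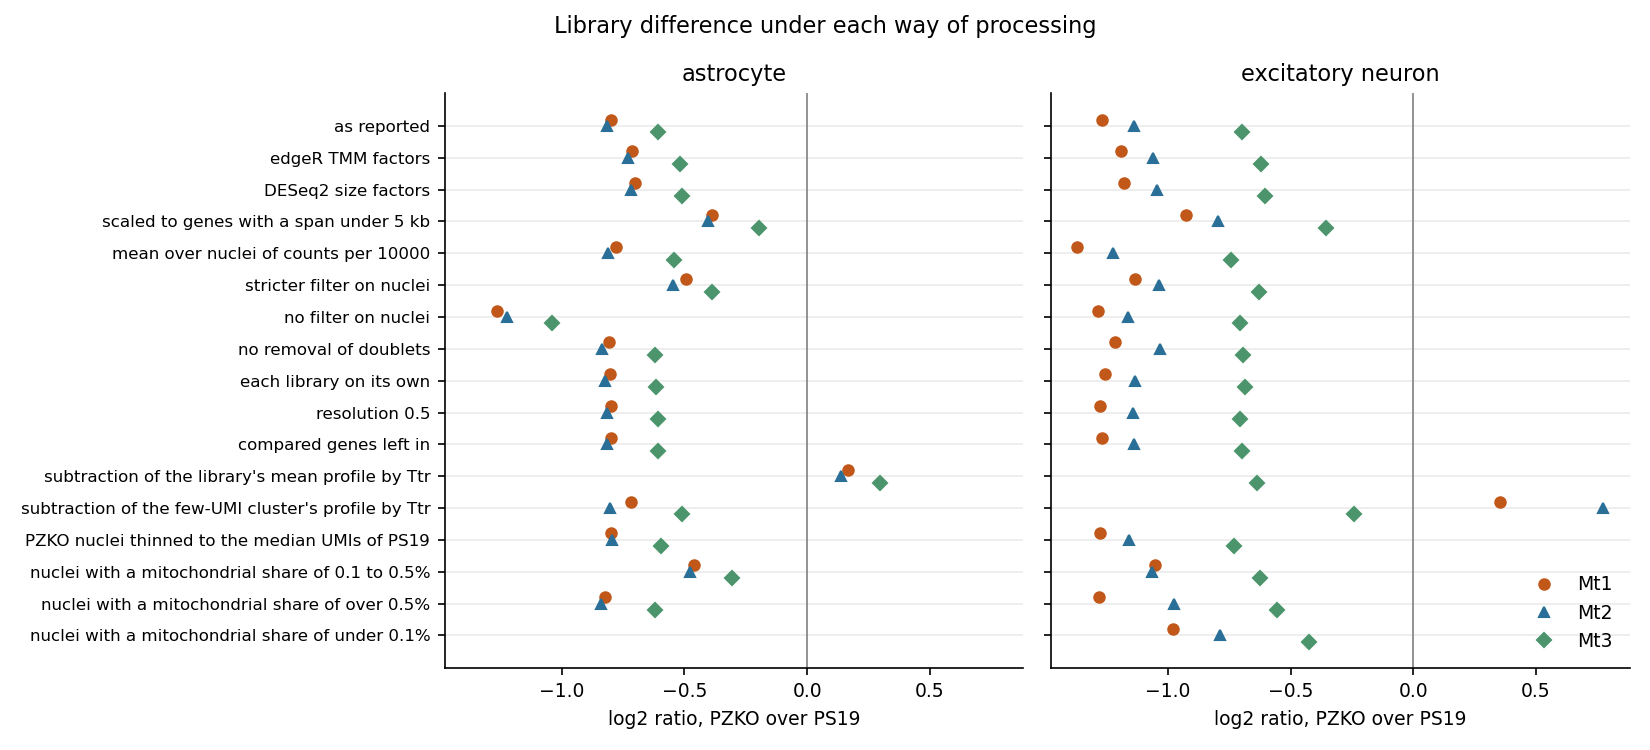
Log2 ratio of PZKO over PS19 for Mt1 (circles), Mt2 (triangles) and Mt3 (diamonds) as reported and under each alternative, in astrocytes and in excitatory neurons. Points lie below 0 except under subtraction of free RNA set by Ttr. There Mt1 reaches 0.17 in astrocytes by the library's mean profile, which overstates free RNA in them. By the profile of the few-UMI cluster Mt1 reaches 0.35 in excitatory neurons.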

How the data were processed

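The authors used Cell Ranger on mm10 to obtain UMI counts, and deposited them raw, as whole numbers. The submitters' processing notes name Cell Ranger 7.0.1, while the header of the matrices names 8.0.1, and whether intronic reads were counted is not given in the sources used here. SoupX, Seurat and DoubletFinder, which the methods describe, come after the deposited counts.

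Nuclei were kept from 600 UMIs and 300 genes upwards, with a mitochondrial share of up to 5% (10466 and 10128), and 876 PS19 and 821 PZKO nuclei were removed as doublets by Scrublet score in scanpy 1.11.5, at 0.8% per 1000 nuclei. Both libraries were clustered together (2000 variable genes without the compared genes, 30 components, 20 neighbours, Leiden resolution 1). Clusters were named from marker lists, where at least 3 markers were detected in 10% of nuclei. A cluster stayed unnamed with fewer markers, with leading genes of another class or of 2 classes, or with few UMIs and no leading marker, thresholds that were chosen with the clusters in view. UMIs were summed per class and library and scaled to their summed UMIs as CPM. Levels have exact Poisson intervals, shares Clopper-Pearson intervals and log2 ratios exact conditional binomial intervals, which cover counting error only. Free RNA was subtracted as a multiple of a profile, set by the ratio of Ttr in a class to Ttr in the profile. Classes with at least 50 nuclei per library, and clusters with at least 40, were described. Gene spans came from GENCODE M21 (32235 of 32285 genes), and promoters from RefSeq.

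Genes were named by rule: the metallothioneins and Mt4 in all classes, the 5 genes most like each, 12 genes of the lists with the lowest and highest of each list in astrocytes, and Zbp1, Ttr, Snap25 and Mbp. The cluster leaders, the chromosome 8 neighbours (1 further item is not reported here), Ftl1, Fth1, Trf and Aqp4 were added after values were seen. Members, lists and alternatives were chosen with earlier results of these data known. Code was tested on drawn counts. Alternatives used edgeR 4.0.16 and DESeq2 1.42.0 for scaling only, in R 4.3.3.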

Additional observations from a re-analysis of the deposited data

Results flagged for a closer look

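A cluster outside the kept nuclei had far more metallothionein than kept astrocytes. When no nucleus was filtered out, 94 PS19 and 7 PZKO nuclei formed an astrocyte-like cluster, of which the filter removes 83 and 5, with a median mitochondrial share of 9.12% and 5.41%. Its leading genes were Mt2 and Mt1, although the metallothioneins had no part in the clustering. In its PS19 nuclei Mt1 stood at 4763 CPM (4623 to 4906), Mt2 at 1828 CPM (1742 to 1917) and Mt3 at 2303 CPM (2206 to 2404), all above the intervals of kept PS19 astrocytes. In its 7 PZKO nuclei the 3 genes stood at 3605, 1202 and 1519 CPM. The 94 PS19 nuclei held 4388 Mt1 UMIs, against 6745 in all 1082 kept PS19 astrocytes. The part of mitochondrial share in these levels was not tested.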

How the results depend on the processing

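Mt1, Mt2 and Mt3 are given in this order. Outside the subtraction of free RNA, all 390 ratios of a gene in a class over 11 settings were below 0, 66 of them in astrocytes and excitatory neurons. These settings include thinning of PZKO to the median UMIs of PS19, with 6 ratios in these 2 classes and 30 in others. Thinning drew the same fraction of the summed UMIs of every gene in a class. It could not move a ratio beyond the noise of drawing, so its ratios are no check. Another clustering resolution, each library clustered on its own, compared genes left in and no removal of doublets moved none of the 6 ratios of astrocytes and excitatory neurons by more than its counting interval. Astrocytes were at -0.71, -0.73 and -0.52 with TMM factors, -0.70, -0.72 and -0.51 with DESeq2 size factors, -0.39, -0.41 and -0.19 when scaled to genes under 5 kb, -0.49, -0.55 and -0.39 with the stricter filter, and -1.26, -1.22 and -1.04 with none. Excitatory neurons were at -0.93, -0.80 and -0.36 when scaled to genes under 5 kb. Mt1 in them was -1.18 with DESeq2 size factors, -1.14 with the stricter filter and -1.37 as a mean over nuclei, and Mt3 was -0.62 with TMM factors, -0.61 with DESeq2 size factors and -0.63 with the stricter filter. These factors moved the median of all genes over all nuclei by 0.12 and 0.14.

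Subtraction of the mean profile gave 0.17, 0.14 and 0.30 in astrocytes and 0.18 for Mt3 in oligodendrocyte precursors, and gave no value where the subtracted level passed the measured level or the free amount passed all UMIs. By the level of Mbp, that profile overstates free RNA in astrocytes. Subtraction of the few-UMI profile gave -0.72 for Mt1 and -0.51 for Mt3 in astrocytes, 0.35, 0.77 and -0.24 in excitatory neurons, 0.59, 1.73 and 0.58 in oligodendrocytes, and 0.64, 0.64 and 0.95 in microglia. It gave 1.72 for Mt2 and 0.23 for Mt3 in oligodendrocyte precursors, and 0.14 for Mt1 and 0.45 for Mt3 in endothelial cells. For Mt1 in oligodendrocyte precursors and pericytes it gave no value, since the subtracted PS19 level passed the measured level. Within ranges of mitochondrial share, also chosen after seeing the data, astrocytes at 0.1% to 0.5% gave -0.46, -0.48 and -0.31. Excitatory neurons gave -0.98, -0.79 and -0.43 under 0.1%, -1.05 for Mt1 and -0.63 for Mt3 at 0.1% to 0.5%, and -0.98 for Mt2 and -0.56 for Mt3 above 0.5%. The cause of these moves was not tested. A minimum of 100 UMIs in place of 20 left the share of short genes past 1.5-fold at 26.6% over all nuclei, 46.4% in astrocytes and 21.5% in excitatory neurons, while in endothelial cells it was 2.44% in place of 6.61%, and in pericytes 0% of 10 genes in place of 2.78% of 36. No paired analysis was possible because each genotype had 1 library, and for the same reason no library could be left out.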

Other observations

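In oligodendrocytes and microglia the gene lists beside the metallothioneins differed. Of the 12 transcripts listed as short in astrocytes, 12 had an interval below 0 in oligodendrocytes and 9 in microglia, with none above in either and median log2 ratios of -0.79 and -0.72. Over all genes 18.0% were below and 12.4% above in oligodendrocytes, and 11.3% and 9.89% in microglia, and the zinc count in oligodendrocytes and the antioxidant count in microglia lie near those shares. Apoe, which microglia also express, went from 3284 to 1323 CPM in microglia (-1.31), and Cst3 from 1467 to 834 CPM (-0.81). Of 12 antioxidant genes under Nfe2l2, 5 of 11 measured had an interval below 0 in oligodendrocytes and 2 of 11 in microglia, with medians of -0.21 and -0.01. Of the zinc list, 4 of 19 measured had an interval below 0 and none above in oligodendrocytes. In microglia none had an interval below 0 and 2 had an interval above. Mtf1 was at -0.05 in oligodendrocytes and at 0.03 in microglia, and both intervals reached past 0.

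In excitatory neurons all 12 of the transcripts listed as short in astrocytes had an interval below 0, with a median of -0.74, and 4 of the 10 long ones lay below and 4 above. The paper names Apoe, Clu and Cst3 of these 12 as relatively higher in PS19 excitatory neurons. It names Mt1 and Mt3 among the same genes. Copper genes there numbered 2 below and none above of 10, iron genes 5 and 1 of 10, antioxidant genes 7 and 1 of 12, and glucocorticoid genes 4 and 5 of 12. Of all 19983 genes measured there, 6640 (33.2%) lay below and 3492 (17.5%) above.

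Mt1 within ranges of mitochondrial share was lower in PZKO in these classes as well. At 0.1% to 0.5% it was 169 and 73.3 CPM in oligodendrocytes (-1.21) and 163 and 70.8 CPM in microglia (-1.21). Above 0.5% it was 319 and 167 CPM in oligodendrocytes (-0.93) and 312 and 143 CPM in microglia (-1.13).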
